A study of Mus musculus with 6 samples.

Results

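Growth hormone and IGF axis genes were followed across the liver cell types of wild-type and SIRT7-/- mice. The genes are Igf1, Ghr, Prlr, Igfbp1, Igfbp2, Igfbp3, Igfbp4, Igfbp7, Igfals and Socs2. They were listed by name, with earlier results of these data known, and all 10 have a column among the 16623 genes of the table. Single-cell RNA sequencing was done on the livers of 3 wild-type mice (genotype WT) and 3 mice without SIRT7 (genotype KO), all 5 to 6 months old, with no treatment named for either group. SIRT7 is a histone deacetylase of the sirtuin family. Each library held hepatocytes and nonparenchymal cells of 1 mouse, mixed in equal numbers after collagenase perfusion and run on the 10x Genomics Chromium 3′ platform. The sources used here give neither strain nor sex of these mice. The comparison between genotypes asks whether the somatotroph axis in the liver differs in mice without SIRT7, and the comparison between cell types asks which liver cells hold the RNA of each gene.

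Growth hormone from the pituitary binds the growth hormone receptor (GHR) on hepatocytes, and signaling through JAK2 and STAT5 then induces Igf1, Igfals and Socs2. IGF1 is the hormone that carries most of the growth effect to other tissues, and in blood most of it circulates in a complex with IGFBP3 and the acid labile subunit, IGFALS. The remaining binding proteins hold IGF in smaller complexes or act locally, and SOCS2 is a feedback inhibitor of the receptor. In the GENCODE annotation of GRCm38, Igf1 spans chr10:87858265-87937042 and Socs2 chr10:95385362-95417180. The receptor genes lie on chromosome 15, Ghr at chr15:3317760-3583492 and Prlr at chr15:10177238-10349180. Igfbp2 lies at chr1:72824503-72852474, Igfbp4 at chr11:99041244-99054392, Igfbp7 at chr5:77349240-77408041 and Igfals at chr17:24865997-24882010.

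The table held 11610 cells, from 552 to 5609 per mouse, and 28060045 molecules counted by unique molecular identifiers (UMIs), from 2511947 to 11069411 per mouse. Levels are counts per 10000 UMIs of a cell (CP10K), averaged over the cells of a mouse and then over mice. Sirt7 itself was at 0.512 to 0.718 CP10K over all cells of the WT mice and at 0.0814 to 0.139 CP10K in the KO mice. Clustering and marker genes gave 2957 hepatocyte-like, 3714 macrophage-like, 2007 T and NK-like, 516 endothelial-like, 582 B and plasma-like, 296 neutrophil-like and 39 stellate-like cells. A further 1499 cells held basophil, dendritic and monocyte markers together and are called mixed myeloid. The basophil markers there came mainly from KO mouse 1, at 5.25 CP10K summed over 3 markers against at most 0.205 CP10K in the other mice. KO mouse 3 gave 8 endothelial-like and 16 B and plasma-like cells and does not enter those comparisons. WT mouse 1 stood apart by hemoglobin RNA, at 48.7 CP10K over its cells against at most 3.54 in the others. Across the libraries, 13 barcodes occurred in more than 1 mouse, on 26 cells. Xist was detected in all 6 mice, and the Y-linked genes looked for were not analysed here.

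Hepatocyte genes were detected in every cell type. For each mouse and cell type, the summed level of 9 abundant hepatocyte genes was divided by the same sum in the hepatocyte-like cells of that mouse. This share ran from 5.05% to 21.5% in macrophage-like cells and from 9.49% to 35.8% in T and NK-like cells. A gene's level in hepatocyte-like cells times this share is the level that a constant admixture of hepatocyte RNA would give, called the free RNA level here. Free RNA in the droplets, doublets and misplaced cells cannot be told apart in this share. The cell types come from clustering the same cells, so their levels are given as a description with no test.

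As a share of a cell's UMIs, Igf1 was about as high in macrophage-like cells as in hepatocyte-like cells. Such a share does not tell how much Igf1 RNA a whole cell holds. Its mean level was 6.81 ± 1.78 CP10K (SD, n = 6 mice) in hepatocyte-like cells and 6.52 ± 0.967 CP10K (SD, n = 6) in macrophage-like cells, a gap within the spread between mice. Igf1 was found in 65.7% of hepatocyte-like and in 71.9% of macrophage-like cells, at medians of 1208 to 3289.5 and 2100 to 6493.5 UMIs per cell over the mice. When each cell was thinned to 1000 UMIs, the shares were 50.2% and 44.5%. In T and NK-like cells, which are not known as a source of this hormone, it was found in 20.2% of cells (11.7% after thinning), at medians of 1077 to 3241 UMIs per cell.

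The macrophage level lay above the free RNA level in each mouse. In the WT mice, macrophage-like cells held 7.59, 7.10 and 6.90 CP10K of Igf1. In the KO mice they held 6.86, 5.08 and 5.59 CP10K. The free RNA level averaged 1.09 CP10K in these cells, or 0.992 CP10K when it was taken from hepatocyte cluster A alone (a cluster described below). In endothelial-like cells the level of Igf1, 1.82 ± 0.720 CP10K (SD, n = 5), was near the free RNA level of 1.94 CP10K. T and NK-like cells (1.61 ± 0.596 CP10K, SD, n = 6, with a free RNA level of 1.83) and mixed myeloid cells (1.03 ± 0.433 CP10K, SD, n = 6, with 1.24) were also near theirs. Neighbours in this order below the first pair differed by less than their spread.

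**Figure D1:**
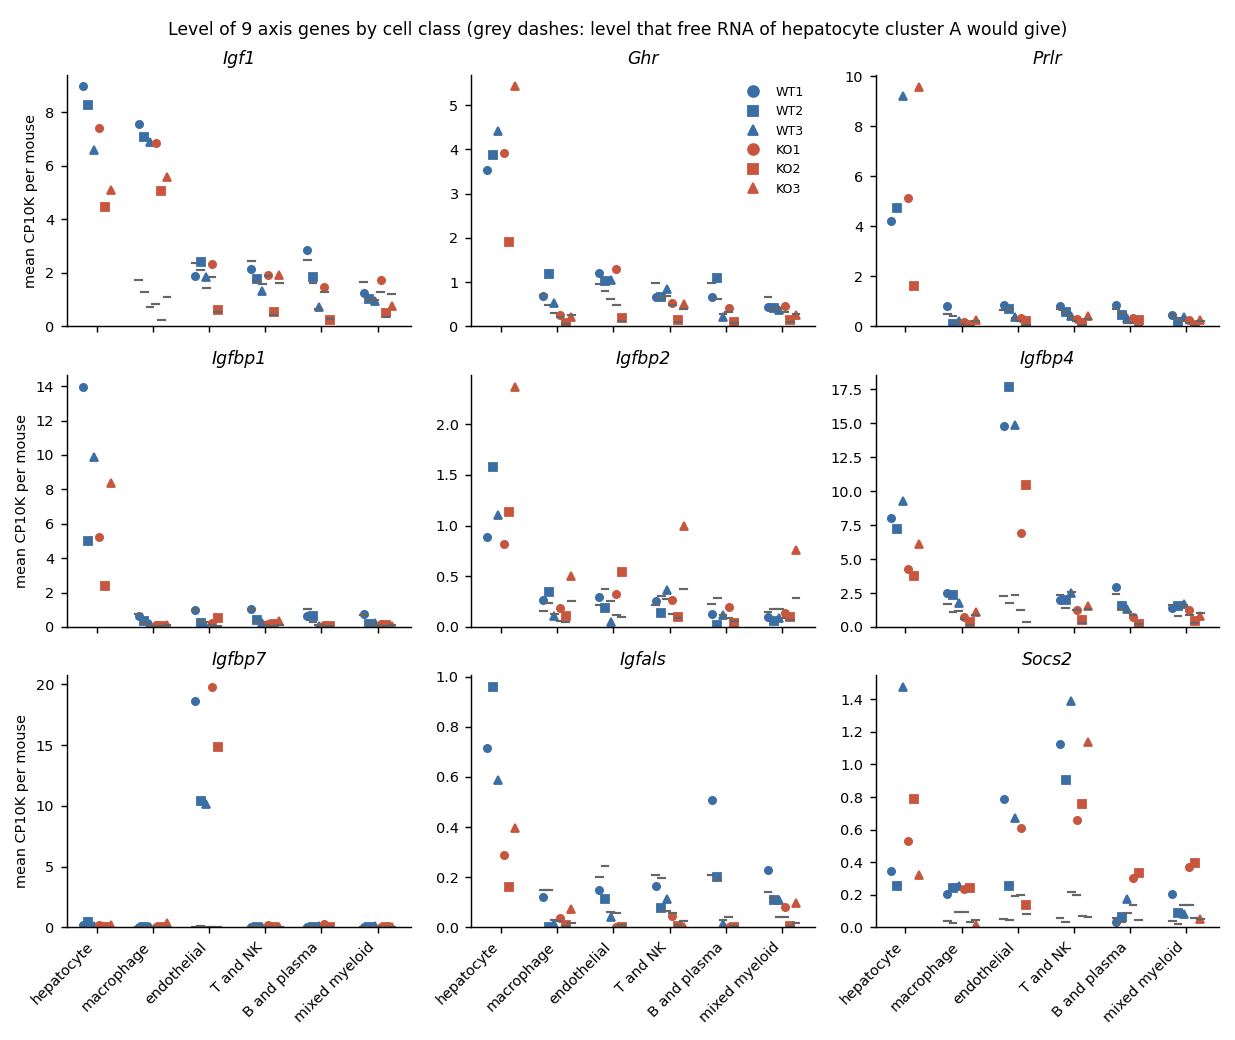
Mean level per mouse (CP10K, linear axis from 0) of 9 axis genes in 6 cell types, 1 point per mouse with at least 20 cells of the type, WT in blue and KO in red. Grey dashes give the free RNA level taken from hepatocyte cluster A. Igf1 is high in hepatocyte-like and macrophage-like cells, Igfbp7 in endothelial-like cells, and Igfbp1, Prlr and Ghr in hepatocyte-like cells.

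Of 11966 UMIs of Igf1 in all cells, 6470 (54.1%) came from macrophage-like and 4211 (35.2%) from hepatocyte-like cells. These shares depend on how many cells of each type were loaded, since the mixture does not keep the proportions of the liver, and 2651 of the 3714 macrophage-like cells came from KO mouse 1. At a finer clustering (resolution 0.7), macrophages formed a cluster marked by Timd4, a gene of resident Kupffer cells, and a smaller one marked by Cx3cr1. The Timd4 cluster held 7.22 ± 0.877 CP10K of Igf1 (SD, n = 6) and 75.1% of its cells had a UMI. The Cx3cr1 cluster held 4.23 ± 1.2 CP10K (SD, n = 4 mice with at least 20 cells) and 57.4% of its cells had a UMI. Those mice were WT mouse 3 and all KO mice. Each of the 4 mice with enough cells was lower in the Cx3cr1 cluster than in the Timd4 cluster.

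**Figure D2:**
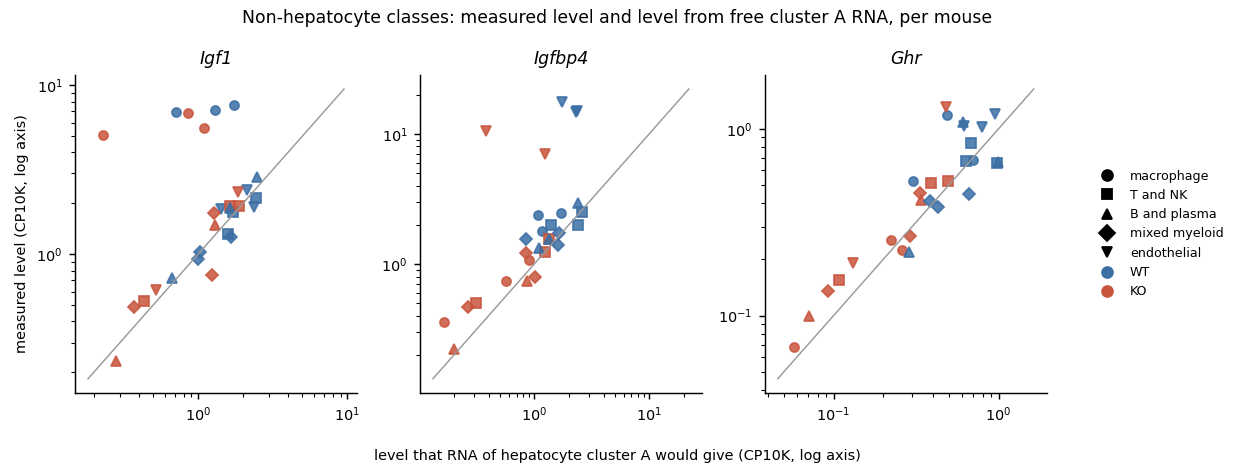
Measured level of Igf1, Igfbp4 and Ghr in 5 cell types other than hepatocytes against the free RNA level taken from hepatocyte cluster A (both CP10K on log axes, 1 point per mouse and cell type, shapes for cell types, WT in blue and KO in red, line of equality in grey). Igf1 in macrophage-like cells and Igfbp4 in endothelial-like cells lie farthest above the line. Igfbp4 in macrophage-like cells (6 of 6 mice) and Ghr in endothelial-like cells (5 of 5 mice) lie above it by less.

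Most UMIs of the receptors were in hepatocyte-like cells. Ghr stood at 3.84 ± 1.16 CP10K in hepatocyte-like cells (SD, n = 6), which held 78.5% of its UMIs. In endothelial-like cells Ghr was at 0.952 ± 0.442 CP10K (SD, n = 5), near the free RNA level of 0.970 CP10K from all hepatocyte-like cells and above that from hepatocyte cluster A (0.594 CP10K) in 5 of 5 mice. Of the 39 stellate-like cells 23.1% had a UMI of Ghr, 9 UMIs in all. Prlr, the receptor of prolactin and a relative of GHR, stood at 5.74 ± 3.07 CP10K (SD, n = 6) with 88.0% of its UMIs in hepatocyte-like cells. In T and NK-like cells Prlr was at 0.442 CP10K, against a free RNA level of 1.64 CP10K from all hepatocyte-like cells and of 0.364 CP10K from hepatocyte cluster A.

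Socs2 differed from the receptors in where it was found. Its level was 0.995 ± 0.274 CP10K in T and NK-like cells (SD, n = 6), above the free RNA level of 0.163 CP10K in 6 of 6 mice. Hepatocyte-like cells were at 0.619 ± 0.460 CP10K (SD, n = 6), with 1.47 CP10K in WT mouse 3 and between 0.255 and 0.786 CP10K in the other mice. Endothelial-like cells followed at 0.491 ± 0.282 CP10K (SD, n = 5), and these neighbours differed by less than their spread. Socs2 was found in 13% of T and NK-like and in 7.85% of hepatocyte-like cells (8.18% and 4.16% after thinning). T and NK-like cells held 32.1% of its 1047 UMIs.

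The IGF binding proteins were divided among cell types. Igfbp1, a binding protein whose gene insulin represses, was at 7.47 ± 4.13 CP10K in hepatocyte-like cells (SD, n = 6), which held 93.9% of its UMIs. Igfbp2, another binding protein made by hepatocytes, was at 1.31 ± 0.579 CP10K there with 69.5% of its UMIs. Igfals was at 0.518 ± 0.295 CP10K there with 77.1% of its UMIs. In T and NK-like cells Igfbp1 was at 0.387 CP10K, against a free RNA level of 0.323 CP10K from hepatocyte cluster A.

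Igfbp4 and Igfbp7 were high in endothelial-like cells. Igfbp4, a binding protein that the protease PAPP-A cleaves, stood at 12.9 ± 4.23 CP10K in endothelial-like cells (SD, n = 5) and at 6.45 ± 2.15 CP10K in hepatocyte-like cells (SD, n = 6), with a free RNA level of 1.75 CP10K in the endothelial-like cells. It was found in 72.5% of endothelial-like cells (66.2% after thinning). Hepatocyte-like cells still held 57.2% of its UMIs, as they were more numerous than the 516 endothelial-like cells.

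Igfbp7, a secreted protein of vessel walls with low affinity for IGF, stood at 14.7 ± 4.48 CP10K in endothelial-like cells (SD, n = 5) and at 0.182 CP10K in hepatocyte-like cells. Endothelial-like cells held 70.5% of its UMIs. In stellate-like cells 34 of 39 cells (87.2%, exact 95% interval 72.6 to 95.7%) had a UMI of Igfbp7, against 2.16% of hepatocyte-like cells. After thinning the shares were 85.7% and 1.37%. The 39 cells are pooled over mice, at most 12 from a mouse, and the interval covers counting error only. The patterns most like that of Igfbp7 over 37 pairs of mouse and cell type, among 3300 genes, were those of Ptprb, Sparc and Esam, with Pearson's r of 0.965, 0.963 and 0.963. For Igf1 they were Paqr9 (0.864), Apoe (0.860) and Cd302 (0.845), and for Igfbp4 they were Cmtm8 (0.911), Aass (0.900) and Cnn3 (0.876). The pairs share mice, libraries and free RNA, so these values are a description.

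Igfbp3, whose protein carries most circulating IGF1, was nearly absent from hepatocyte-like cells. Only 30 UMIs were counted in 11610 cells, and 22 of them lay in the 39 stellate-like cells, where 15 cells (38.5%, exact 95% interval 23.4 to 55.4%) had a UMI. Of 2957 hepatocyte-like cells, 4 had a UMI (0.135%). Endothelial-like cells had 0 of 516 cells with a UMI, which allows a share of up to 0.581%, and T and NK-like cells had 0 of 2007, which allows up to 0.149%. These intervals and limits cover counting error only, over cells pooled from the mice.

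Igfbp1 and Igfbp3 are neighbours in the genome, although 1 was found in hepatocyte-like cells and the other in stellate-like cells. In GRCm38, Igfbp1 lies at chr11:7197782-7202546 on the plus strand and Igfbp3 at chr11:7206086-7213923 on the minus strand, so that their 3′ ends face each other across 3539 bases. The 250 bases before each RefSeq start (GRCm38.p6) are shown because these neighbours differ in base composition as well as in the cells that hold their RNA. Capitals mark CG pairs and the letters CAAAACA, an element known from insulin-repressed genes that was searched for after the window had been read. The first sequence is chr11:7197537-7197786 on the plus strand and the second is chr11:7213924-7214173 on the minus strand, both written 5′ to 3′.
Igfbp1: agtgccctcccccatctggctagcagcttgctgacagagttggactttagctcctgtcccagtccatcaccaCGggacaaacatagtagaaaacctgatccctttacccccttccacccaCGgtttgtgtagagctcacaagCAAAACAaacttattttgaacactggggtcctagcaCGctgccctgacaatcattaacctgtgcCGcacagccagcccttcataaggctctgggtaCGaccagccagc
Igfbp3: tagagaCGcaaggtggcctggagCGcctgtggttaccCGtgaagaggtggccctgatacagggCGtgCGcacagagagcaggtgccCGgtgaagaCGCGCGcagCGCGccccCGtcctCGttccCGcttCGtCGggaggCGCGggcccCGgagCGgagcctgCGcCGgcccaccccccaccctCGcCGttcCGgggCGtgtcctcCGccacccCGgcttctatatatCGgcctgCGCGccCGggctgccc
The Igfbp1 sequence has 5 CG pairs and 53.2% G and C, and its CAAAACA starts 108 bases before the gene's start. The Igfbp3 sequence has 32 CG pairs and 73.2% G and C, and no CAAAACA.

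Of the 10 genes, 9 had promoter windows in RefSeq's table, 15 windows in all, of 250 bases before to 50 after a start. CAAAACA was found on either strand in windows of Igfbp1 and Prlr, and in 6.28% of all 32851 windows. The letters TTCNNNGAA, the core of STAT5 sites, were found in windows of Prlr and Igfals, and in 8.30% of all windows. TGANTCA (AP-1) was found in windows of Igf1, Ghr, Prlr and Igfbp2 (7.81% of all windows), TATAAA in Ghr and Igfbp4 (13.6%), and GGGCGG in Ghr, Igfbp2, Igfbp7 and Igfals (35.7%). A match is a string of letters in a window, not a site shown to be bound.

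Hepatocyte-like cells formed a pair of clusters that differed in several axis genes. Cluster A (1777 cells, median 1243 UMIs) was led by Mup17, Sult2a5, Cyp2c50 and Fabp1 and by hemoglobin genes, and its markers scored highest for red blood cells and then for hepatocytes. Cluster B (1180 cells, median 2257.5 UMIs) was led by Slc22a30, Gcgr, G6pc, Igfbp1 and Cyp7a1, and had 393 CP10K of the nuclear RNA Malat1 against 13.4 in cluster A. Among the marker lists cluster B scored highest for periportal hepatocytes (10 markers detected). Markers of both liver zones were split between the clusters, which are therefore not named as zones. Of 10 pericentral markers, 2 were higher in cluster B and 3 in cluster A in all 6 mice, and of 11 periportal markers 2 and 2. The median log2 ratio of cluster B to cluster A was −0.16 over the pericentral and 0.56 over the periportal markers. The axis genes were not used for clustering.

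Igfbp1 was at 1.32 ± 1.19 CP10K in cluster A and at 17.0 ± 7.61 CP10K in cluster B (SD, n = 6 each). Prlr was at 1.56 ± 1.0 and 11.2 ± 4.33 CP10K, and Ghr at 2.34 ± 0.949 and 5.69 ± 1.23 CP10K. All of these were higher in cluster B in 6 of 6 mice. Igf1 (7.03 ± 1.6 against 6.13 ± 2.95 CP10K) and Igfbp4 (6.54 ± 2.39 against 6.16 ± 1.76 CP10K) did not go one way, with cluster B higher in 3 of 6 and in 2 of 6 mice. Depth and nuclear RNA moved with the clusters, and their part in these differences was not tested. Cluster B made up 40.0, 19.6 and 44.4% of hepatocyte-like cells in the WT mice and 42.7, 17.4 and 80.7% in the KO mice.

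**Figure D3:**
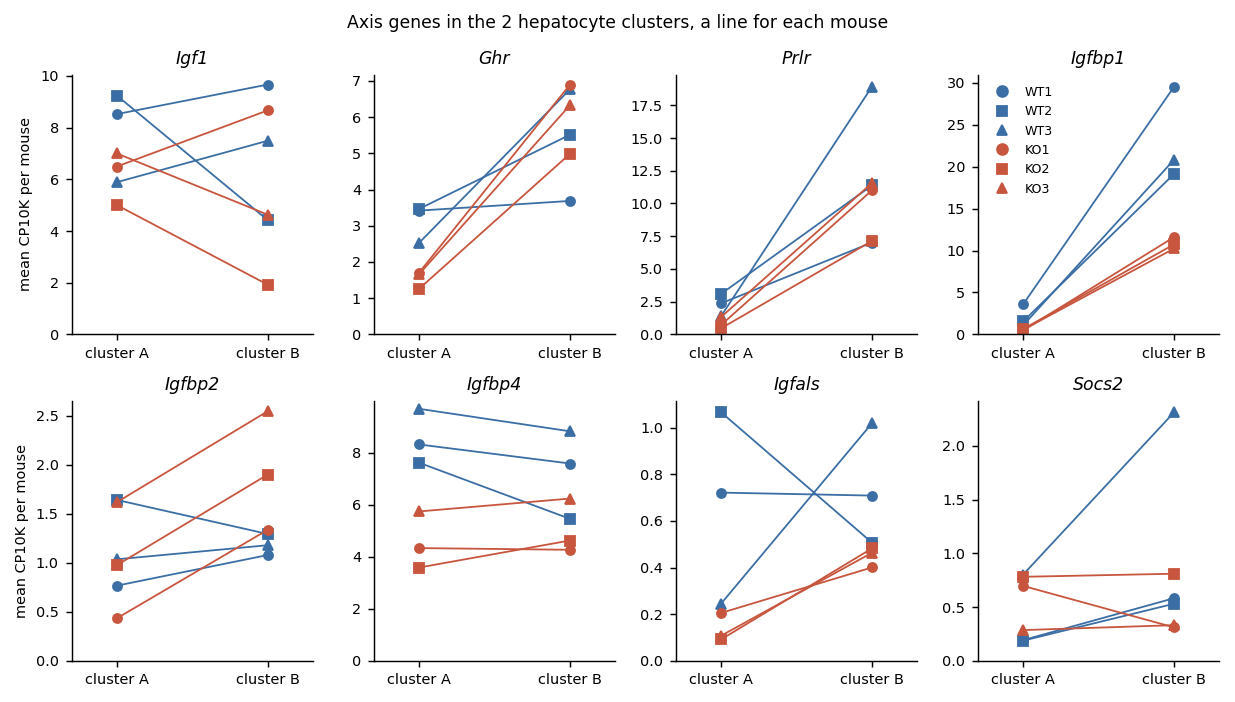
Mean level of 8 axis genes (CP10K, linear axes from 0) in hepatocyte clusters A and B, with the points of the same mouse joined by a line, WT in blue and KO in red. The lines of Igfbp1, Prlr and Ghr rise from cluster A to cluster B in 6 of 6 mice, and those of Igf1 and Igfbp4 do not share a direction.

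Hepatocyte-like cells were also placed by 10 pericentral and 11 periportal genes. They were split into 3 nearly equal parts within each mouse and hepatocyte cluster, with 13.2% of cells near a cut. The 3 parts of a mouse thus hold nearly the same mix of clusters A and B. Igf1 was at 7.31, 6.73 and 6.39 CP10K in the pericentral, middle and periportal parts. Its log2 ratio of periportal to pericentral was −0.22 ± 0.37 (SD, n = 6), and 3 of 6 mice were higher on the periportal side. Prlr had −0.32 ± 0.25 and 1 mouse higher on the periportal side. Alb, a hepatocyte gene outside the axis, had −0.14 ± 0.51. Over the 10 axis genes the mean log2 ratio lay between −0.98 (Igfbp7) and −0.14 (Igfbp3). Glul (−3.52) and Hal (1.89), which were among the genes used to place the cells, lay outside this range.

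Between genotypes, none of the axis genes passed the test in hepatocyte-like cells. The limma test on the log2 mouse means (pseudocount 0.05 CP10K) called 12 of 9853 genes (0.122%) at an adjusted p under 0.05. It called 0 of the 9 axis genes tested. Of the 9, 1 had an unadjusted p under 0.05, against 734 of the 9853 genes. Igfbp3 was too low to be tested. The median log2 difference, KO minus WT, was −0.51 over the 9 axis genes and 0.16 over all genes tested, and 8 of the 9 were negative against 37.3% of all genes. The KO mice were all below the WT mice in 2 of the 9, against 3.21% of all genes. With 3 against 3 mice the exact permutation test cannot go below p = 0.1.

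Igf1 in hepatocyte-like cells was at 8.98, 8.30 and 6.60 CP10K in the WT mice and at 7.42, 4.47 and 5.09 CP10K in the KO mice. KO mouse 1 lay between the WT mice, so the groups overlapped. The log2 difference was −0.51 ± 0.42 (SE), with 2 SE reaching from −1.35 to 0.33, and limma's adjusted p was 0.875 (exact permutation p = 0.2, two-sided).

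Ghr was at 3.52, 3.86 and 4.41 CP10K in the WT mice and at 3.92, 1.91 and 5.42 CP10K in the KO mice. The KO mice lay on both sides of the WT mice, with a log2 difference of −0.18 ± 0.45 (SE, adjusted p = 0.965 by limma). Without KO mouse 2 the difference was 0.23. Prlr was at 4.23, 4.72 and 9.18 CP10K in the WT mice and at 5.11, 1.63 and 9.58 CP10K in the KO mice, which overlapped over their whole range, and the log2 difference was −0.39 ± 0.57 (SE). Without KO mouse 2 it was 0.30. Socs2 had a log2 difference of −0.01 ± 0.54 (SE), and it was 0.70 without WT mouse 3.

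Igfals had the lowest unadjusted p of the axis genes. It was at 0.717, 0.957 and 0.589 CP10K in the WT mice and at 0.289, 0.160 and 0.395 CP10K in the KO mice. The highest KO mouse was below the lowest WT mouse. The log2 difference was −1.32 ± 0.40 (SE), with an unadjusted p of 0.00491 and an adjusted p of 0.414 by limma (exact permutation p = 0.1). It rests on 333 UMIs in hepatocyte-like cells.

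Igfbp4 was the other gene without overlap. It was at 8.02, 7.19 and 9.30 CP10K in the WT mice and at 4.30, 3.76 and 6.14 CP10K in the KO mice. The log2 difference was −0.80 ± 0.42 (SE), with an adjusted p of 0.711 by limma (exact permutation p = 0.1). Igfbp1 was at 13.9, 5.00 and 9.87 CP10K in the WT mice and at 5.23, 2.40 and 8.37 CP10K in the KO mice. WT mouse 2 lay below 2 of the KO mice, and the log2 difference of −0.89 ± 0.53 (SE) had an adjusted p of 0.776 by limma. Igfbp2 was at 0.891, 1.57 and 1.10 CP10K in the WT mice and at 0.819, 1.14 and 2.37 CP10K in the KO mice, with a log2 difference of 0.17 ± 0.43 (SE) that was −0.00068 after centring on the median of all genes. The summed level of the hepatocyte markers (7 of 7 measured, none at 0) was 222 to 443 CP10K in the WT mice and 130 to 228 CP10K in the KO mice, and its part in these differences was not tested.

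**Figure D4:**
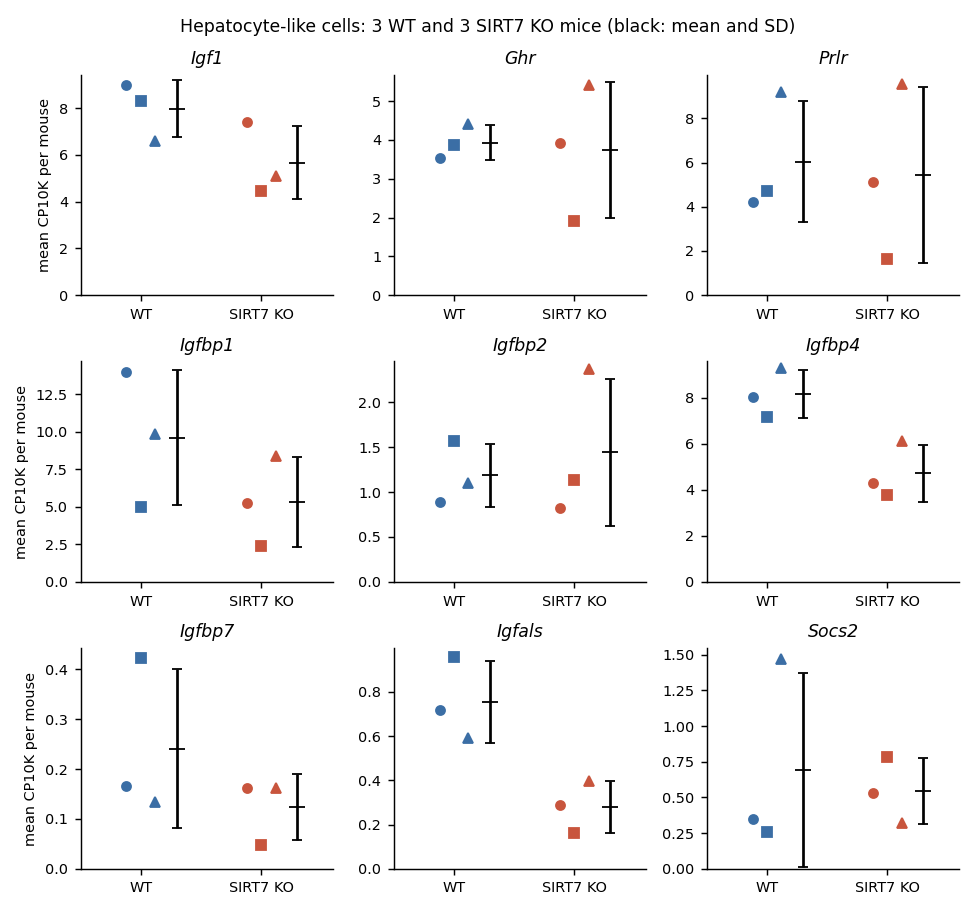
Mean level of 9 axis genes in hepatocyte-like cells (CP10K, linear axes from 0), 1 point per mouse, with the mean and SD of 3 WT and 3 KO mice in black. The WT and KO points of Igfbp4 and Igfals do not overlap, and those of the other genes do.

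Within hepatocyte cluster A, the KO mice were all below the WT mice in 5 of 9 axis genes tested, against 8.68% of all 8630 genes. The test called 39 of these genes (0.452%) and 0 axis genes. Of the 9 axis genes, 5 had an unadjusted p under 0.05, against 893 of the 8630 genes. Igfbp1 was at 3.6, 1.55 and 1.09 CP10K in the WT mice and at 0.478, 0.642 and 0.562 CP10K in the KO mice. Its log2 difference was −1.63 ± 0.40 (SE), with an adjusted p of 0.0683 by limma. Igfbp4, at 8.31, 7.61 and 9.68 CP10K in the WT mice and at 4.33, 3.58 and 5.74 CP10K in the KO mice, had −0.92 ± 0.24 (SE, adjusted p = 0.108).

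The receptors and Igfals followed in the same cluster. Ghr was at 3.42, 3.46 and 2.52 CP10K in the WT mice and at 1.70, 1.26 and 1.66 CP10K in the KO mice, a log2 difference of −1.0 ± 0.28 (SE, limma adjusted p = 0.143). Prlr was at 2.37, 3.10 and 1.39 CP10K in the WT mice and at 0.721, 0.466 and 1.33 CP10K in the KO mice, a log2 difference of −1.44 ± 0.39 (SE, limma adjusted p = 0.112). Igfals was at 0.722, 1.07 and 0.245 CP10K in the WT mice and at 0.205, 0.0915 and 0.107 CP10K in the KO mice, a log2 difference of −1.83 ± 0.53 (SE, limma adjusted p = 0.167). In each of these genes the highest KO mouse was below the lowest WT mouse. Igf1 overlapped between the genotypes in cluster A, with −0.34 ± 0.25 (SE, limma adjusted p = 0.642).

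Calls in cluster A depended on single libraries and on how cells were averaged. Without WT mouse 3, which gave 55 cells, Igfbp1 and Igfals passed (limma adjusted p = 0.0337 for each), and without KO mouse 3, which gave 65 cells, Prlr (0.0193) and Igfbp4 (0.0312) passed. With UMIs pooled over cells, Igfbp1 (0.0317), Igfals (0.0196) and Ghr (0.0462) passed, and without cells under 1000 UMIs, Igfbp1 (0.0303), Igfbp4 (0.0372) and Prlr (0.00796) passed. Hepatocyte markers in cluster A summed to 240 to 481 CP10K in the WT mice and 140 to 252 CP10K in the KO mice, and their part in these differences was not tested.

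In hepatocyte cluster B, 28 of 10273 genes were called (0.273%) and 0 of the 9 axis genes tested. Of the 9, 1 had an unadjusted p under 0.05 by limma, against 1047 of the 10273 genes. Igfbp1 was at 29.5, 19.1 and 20.8 CP10K in the WT mice and at 11.6, 10.7 and 10.2 CP10K in the KO mice. All WT mice were above all KO mice, and the log2 difference was −1.06 ± 0.35 (SE, limma adjusted p = 0.272). Igfals was the other gene with the KO mice all lower (4.22% of all genes), and Igfbp2 had the KO mice all higher, at 1.34, 1.90 and 2.55 CP10K against 1.08, 1.29 and 1.18 CP10K, with a log2 difference of 0.64 ± 0.39 (SE, limma adjusted p = 0.596). Without overlap in either direction were 17.1% of all genes. Ghr and Prlr overlapped in cluster B. The difference between clusters was tested within mice, and for Ghr the genotype difference in cluster B minus that in cluster A was 1.22 ± 0.57 (SE, limma adjusted p = 0.447). The adjusted p of the 9 axis genes in that test ranged from 0.401 to 0.864.

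In macrophage-like cells, Igf1 was lower in each KO mouse than in each WT mouse, though KO mouse 1 (6.86 CP10K) lay close to WT mouse 3 (6.90). The log2 difference was −0.31 ± 0.17 (SE, limma adjusted p = 0.558), with 2 SE from −0.65 to 0.04. The free RNA level of Igf1 in these cells ran from 0.225 to 1.93 CP10K over the mice. Its part in this difference was not tested. Set against hepatocyte-like cells of the same mice, the genotype difference in macrophage-like cells was higher by 0.20 ± 0.51 (SE, limma adjusted p = 0.966). The test called 21 of 9958 genes (0.211%) and 0 of the 8 axis genes tested. Of the 8, 4 had an unadjusted p under 0.05, against 1061 of the 9958 genes. The KO mice were all lower in 4 of 8, against 9.87% of all genes. They were all higher in Igfbp7, at 0.0571, 0.0515 and 0.379 CP10K against 0.0208, 0 and 0.00694 CP10K in the WT mice. The log2 difference was 1.51 ± 0.60 (SE, limma adjusted p = 0.393) and rests on 70 UMIs. Igfbp7 passed the filter of 0.05 CP10K only through the KO mice. All its WT values were also below the pseudocount of 0.05 CP10K, on which the log2 difference therefore depends. Of all genes, 17.1% did not overlap in either direction.

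Igfbp4 in macrophage-like cells was at 2.48, 2.37 and 1.78 CP10K in the WT mice and at 0.741, 0.355 and 1.07 CP10K in the KO mice. The log2 difference was −1.66 ± 0.33 (SE, limma adjusted p = 0.0735). The free RNA level from cluster A moved the same way, at 1.71, 1.08 and 1.17 CP10K in the WT mice and at 0.571, 0.164 and 0.897 CP10K in the KO mice. Ghr had −1.91 ± 0.42 (SE, limma adjusted p = 0.107), at levels of 0.529 to 1.19 CP10K in the WT mice and 0.0680 to 0.255 CP10K in the KO mice, and its free RNA level was 0.305 to 0.701 and 0.0574 to 0.260 CP10K. Without KO mouse 1, which gave most macrophage-like cells, both passed (limma adjusted p = 0.0248 for Igfbp4 and 0.0267 for Ghr), and the free RNA's part in the result was not tested.

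In endothelial-like cells, with 3 WT and 2 KO mice, Igfbp4 was at 14.8, 17.7 and 14.9 CP10K in the WT mice and at 6.95 and 10.5 CP10K in the KO mice. These KO mice were below the WT mice, and the log2 difference was −0.88 ± 0.31 (SE, limma adjusted p = 0.396). KO mouse 3, left out with 8 endothelial-like cells and 48 UMIs of Igfbp4, was at 27.8 CP10K, above every WT mouse, so the genotypes overlap when it is counted. The free RNA level of Igfbp4 from cluster A was at most 2.35 CP10K in these cells. Igfbp7 was at 18.6, 10.4 and 10.1 CP10K in the WT mice and at 19.7 and 14.9 CP10K in the KO mice, which overlapped, with a log2 difference of 0.45 ± 0.31 (SE, limma adjusted p = 0.767). The test called 27 of 10656 genes (0.253%) and 0 of the 9 axis genes tested. Of the 9, 1 had an unadjusted p under 0.05, against 817 of the 10656 genes. The KO mice were all lower in 3 of the 9, against 13.1% of all genes. Igfals, 1 of the 3, had 8 UMIs and was at 0 CP10K in both KO mice. It passed the 0.05 CP10K filter only through the WT mice. Prlr, another of the 3, had 42 UMIs. KO mouse 3, left out, was above WT mouse 3 (0.387 CP10K) in Prlr, so the genotypes overlap in Prlr when it is counted. Both KO mice were higher in Igfbp2, with a log2 difference of 1.22 ± 0.71 (SE, limma adjusted p = 0.714), and 22.8% of all genes did not overlap in either direction. Without KO mouse 1 a single KO mouse remained, assumed to vary like the others, and Igf1 (−1.66) and Ghr (−2.24) passed with adjusted p of 0.0202 and 0.0125 by limma.

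**Figure D5:**
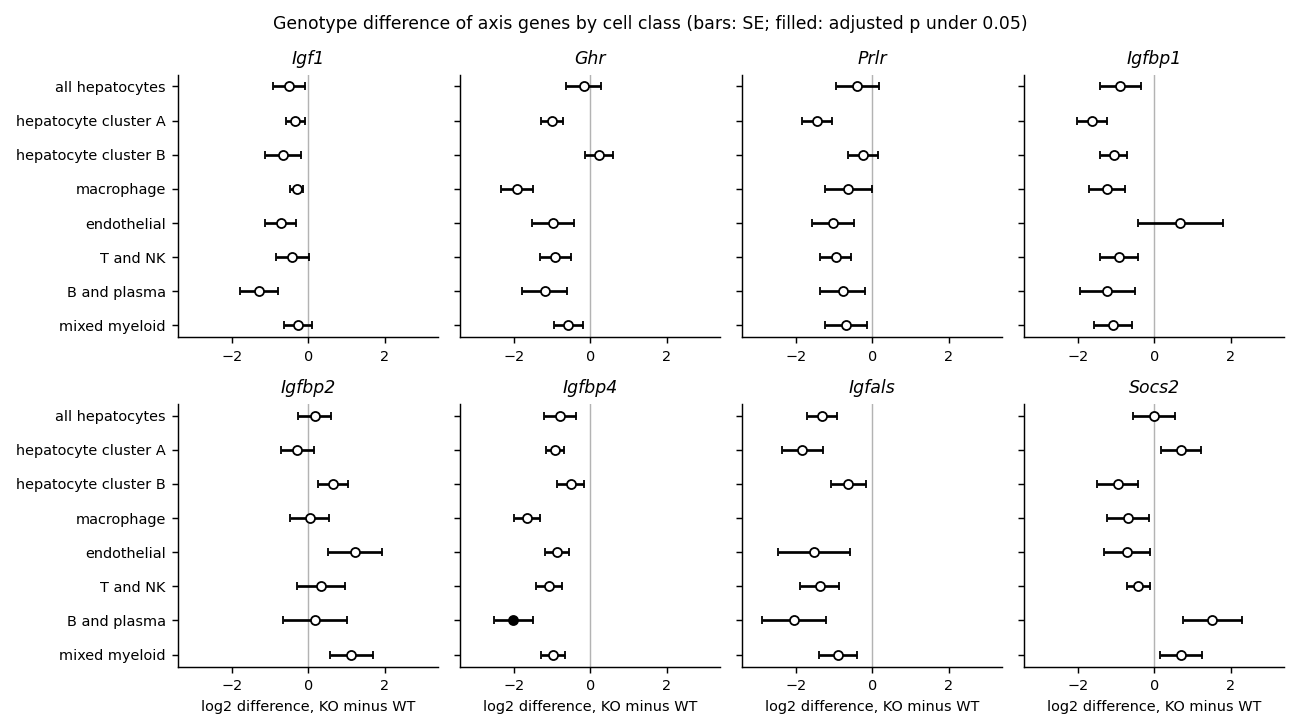
Log2 difference KO minus WT of 8 axis genes in each cell type compared and in hepatocyte clusters A and B. Points and SE are from limma, with filled points where the adjusted p was under 0.05. The row of all hepatocytes holds the cells of both clusters. Among these genes Igfbp4 in B and plasma-like cells is the only filled point, and the estimates of Igfbp4 are below 0 in all 8 comparisons.

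Igfbp4 in B and plasma-like cells was the only axis gene to pass in any cell type. It was at 2.92, 1.56 and 1.34 CP10K in the WT mice and at 0.735 and 0.221 CP10K in 2 KO mice. It fell by 2.02 ± 0.51 on the log2 scale (SE, limma adjusted p = 0.0162), and the test called 51 of 8746 genes (0.583%), of which 37 were lower (0.423%). The KO mice were all lower in 3 of 9 axis genes, against 8.37% of all genes. Among these 3, Igfals rested on 8 UMIs and was at 0 CP10K in both KO mice. Igfals thus passed the filter on the mean level only through the WT mice. Prlr, another of these 3, had 67 UMIs. KO mouse 3, left out with 16 cells, was above WT mouse 3 (0.354 CP10K) in Prlr, so the genotypes overlap in Prlr when it is counted. Both KO mice were higher in Socs2, with a log2 difference of 1.51 ± 0.77 (SE, limma adjusted p = 0.965), and 17.2% of all genes did not overlap in either direction. KO mouse 3, left out, held 0.073 CP10K of Socs2 in 14 cells of the plasma cluster and 0 in 2 cells of the B cell cluster. WT mouse 3 was at 0.177 CP10K over the class, so the genotypes overlap in Socs2 when KO mouse 3 is counted. The free RNA level from cluster A was 2.41, 1.34 and 1.09 CP10K in the WT mice and 0.859 and 0.202 CP10K in the KO mice, close to the levels measured. The make-up of the class moved too: plasma cells were 33.3, 57.1 and 86.7% of it in the WT mice and 67.5 and 87.7% in the KO mice. Markers of other cell types differed as well. The 6 neutrophil markers, none at 0 over the class, summed to 0, 0.022 and 0.143 CP10K in the WT mice and 15.7 and 12 CP10K in the KO mice. The 13 T and NK markers, none at 0, summed to 0.056 to 1.72 CP10K in the WT mice and 3.50 and 3.97 CP10K in the KO mice. The part of free RNA, of the make-up and of these markers in the result was not tested.

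The plasma cluster by itself held 0.621, 1.47 and 0.766 CP10K of Igfbp4 in the WT mice and 0.410, 0.159 and 1.03 CP10K in the KO mice, with 12 cells of WT mouse 1 and 14 of KO mouse 3. The B cell cluster held 4.07, 1.66 and 5.04 CP10K in the WT mice and 1.41 and 0.665 CP10K in KO mice 1 and 2. The call was lost under 11 of 19 alternatives. With 1 KO mouse left, assumed to vary like the others, the log2 difference was −1.26 without KO mouse 2 (limma adjusted p = 0.999) and −2.79 without KO mouse 1 (limma adjusted p = 0.0162). Without WT mouse 1, 2 or 3 the adjusted p was 0.315, 0.0694 and 0.24.

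In T and NK-like cells the test called 15 of 10008 genes (0.15%) and 0 of the 8 axis genes tested. Of the 8, 4 had an unadjusted p under 0.05, against 706 of the 10008 genes. The KO mice were all lower in 3 of the 8, against 6.55% of all genes. Igfals, 1 of the 3, had 22 UMIs in these cells and passed the 0.05 CP10K filter only through the WT mice. Socs2 was above its free RNA level there in 6 of 6 mice. It was at 1.13, 0.903 and 1.39 CP10K in the WT mice and at 0.656, 0.757 and 1.14 CP10K in the KO mice. KO mouse 3 lay within the WT range, and the log2 difference was −0.42 ± 0.30 (SE, limma adjusted p = 0.829). Igfbp4 had −1.08 ± 0.35 (SE, limma adjusted p = 0.448). In mixed myeloid cells the test called 4 of 9735 genes (0.0411%) and 0 of the 8 axis genes tested. Of the 8, 2 had an unadjusted p under 0.05, against 570 of the 9735 genes. The log2 difference of Igfbp4 there was −0.97 ± 0.31 (SE, limma adjusted p = 0.521), and without KO mouse 1 it was −1.28, with an adjusted p of 0.0285 by limma. KO mouse 1 was the mouse with basophil markers in these cells, whose part in the result was not tested. The KO mice were all lower in 2 of the 8 axis genes, against 6.83% of all genes, and all higher in Igfbp2 (1.12 ± 0.56, SE, limma adjusted p = 0.854), with 10.8% of all genes not overlapping in either direction. The estimates of Igfbp4 were negative in 8 of 8 comparisons, with KO mouse 3 left out in endothelial-like and B and plasma-like cells. These estimates are not independent of each other. The comparison of hepatocyte-like cells holds the same cells as those of clusters A and B. The cell types also share the same mice and the admixed RNA of their hepatocytes.

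A wider list of 44 genes of the axis, from JAK and STAT signaling to the IGF and insulin receptors, was tested as well. Of these 38 were in the table, and 0 passed in any cell type. In hepatocyte-like cells 28 were tested, of which 11 had negative and 17 positive log2 differences. Of the 28, 1 had an unadjusted p under 0.05 by limma, against 734 of all 9853 genes. Stat5b, the main STAT of growth hormone signaling in liver, was at 0.511 CP10K with a log2 difference of 0.10. The insulin receptor gene Insr (0.867 CP10K) had 0.27, and Pik3r1 (1.43 CP10K), which encodes the regulatory subunit of PI3 kinase, had 0.69 with an adjusted p of 0.809 by limma. Grb14, an inhibitor of the insulin receptor, was at 0.912 CP10K, with a log2 difference of 0.50 and an adjusted p of 0.844 by limma. Stat3 (0.602 CP10K) had 0.24, Akt2 (0.539 CP10K) had 0.36 and Hnf4a (1.96 CP10K), a transcription factor of hepatocyte identity, had 0.10. The growth factor Fgf1 (0.572 CP10K) had −0.62 and the receptor Egfr (0.714 CP10K) had −0.53. The lowest adjusted p of the list in hepatocyte-like cells was 0.258 by limma, for Igf2bp2, which was also the gene with an unadjusted p under 0.05. It was at 0.0087, 0 and 0 CP10K in the WT mice and at 0.1411, 0.1375 and 0.1356 CP10K in the KO mice. Igf2bp2 thus passed the filter of 0.05 CP10K only through the KO mice.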

How the data were processed

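According to the methods and the labels, the authors aligned reads to the mouse genome mm10 with Cell Ranger 6.0.0, removed cells with under 500 genes or over 5% mitochondrial reads and genes found in under 3 cells, and brought every cell to a total of 10000 before a log with an offset of 1. The deposited values are the natural log of CP10K plus 1. Undoing it gave whole UMIs for all 12961041 values above 0 (tolerance 0.02). Cells were mapped to mice by the barcode ending.

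Cells were clustered with scanpy 1.11.5 and leidenalg 0.10.2 (1000 variable genes without the axis genes, 50 components, 3 neighbors per mouse, resolution 0.35), giving 10 clusters, and named "-like" from marker lists. The hepatocyte clusters did not follow zones as planned and are called A and B, and the cluster planned as dendritic is called mixed myeloid. Scrublet marked 46 cells (0.396%), a low share on which no filter was based, so they were kept and the 5% of cells per mouse with the highest scores were left out as an alternative. The genes for the free RNA level were Alb, Apoa1, Apoa2, Apoc3, Ttr, Serpina1c, Fgb, Ahsg and Trf.

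Mean CP10K per mouse and cell type (at least 20 cells) plus 0.05 was taken as log2, and genes averaging 0.05 CP10K or more were compared between genotypes with limma 3.58.1 (R 4.3.3, eBayes with trend and robust, two-sided, Benjamini-Hochberg over all genes of the cell type, threshold 0.05). The mouse was the replicate. Python 3.11.15, numpy 2.4.6, scipy 1.17.1 and pandas 2.3.3 were used, and the scripts were tested on simulated data. Named genes were the 10 axis genes, Sirt7 and those of the wider list with at least 0.5 CP10K in hepatocyte-like cells or past the threshold. Igf2bp2, Alb, Glul, Hal, Malat1 and the leading genes of clusters were named after their values were seen. The axis genes, lists and marker genes were chosen with earlier results of these data known. The alternatives were other pseudocounts, filters, averages, centring, cell filters, resolutions, a replicate block and leaving out each mouse.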

Additional observations from a re-analysis of the deposited data

How the results depend on the processing

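Each result was recomputed with 1 choice changed at a time. The 54 levels were recomputed only with pooled UMIs and without the 46 cells that Scrublet marked, and stayed within 1 SD in all 108 values. The 46 cells are 0.396% of all cells, so leaving them out could move little. The other alternatives were not run for the levels. Changes were counted for 31 chosen log2 differences of axis genes, most of them in hepatocyte-like cells and clusters A and B. None was from T and NK-like or mixed myeloid cells. Of the 31, 24 kept their direction under every alternative run. Of their 625 values, 585 kept direction and side of the threshold, 14 changed sign, 11 no longer passed and 15 newly passed. Differences outside the 31 that newly passed are not in these counts. With a mouse left out, the log2 difference in hepatocyte-like cells ran from −0.51 to 0.23 for Ghr and from −0.96 to 0.30 for Prlr, positive for both only without KO mouse 2. It ran from −0.25 to 0.49 for Igfbp2 (−0.01 without WT mouse 1) and was −0.00068 with median centring. It ran from −0.46 to 0.70 for Socs2 (0.29 without KO mouse 3) and was 0.0096 with a pseudocount of 0.01 and 0.00029 at resolution 0.7. In cluster A, Igfbp2 ran from −0.70 to 0.19 with a mouse left out and was 0.29 without cells under 1000 UMIs. In cluster B, Ghr ran from −0.022 to 0.41 and was −0.0031 with median centring, and Prlr ran from −0.60 to 0.12.

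The number of genes called by limma moved far more, and the cause was not tested. In hepatocyte-like cells the 12 became 3 with no filter, pooled UMIs, no cells under 1000 UMIs, or eBayes without trend and robust, 0 with the mean of logged values (209 at an unadjusted p under 0.05), and 3 to 28 with a mouse left out. It was 50 with equal weight of clusters A and B, an alternative chosen after seeing the data, as were leaving out the top 5% of doublet scores and the free RNA level from cluster A. In cluster A the 39 became 25 at a minimum mean of 0.2, 134 pooled, 13 with logged means, 97 without cells under 1000 UMIs, 2 without trend and 19 to 162 with a mouse left out. In cluster B the 28 became 7 and 46 with pseudocounts of 0.01 and 0.2, 14 with no filter, with centring or without cells under 1000 UMIs, 8 at a minimum mean of 0.2, 17 pooled, 1 without trend and 8 to 189 with a mouse left out. In macrophage-like cells the 21 became 1 with no filter or without trend, 59 with logged means and 1 to 102 with a mouse left out. In endothelial-like cells the 27 became 11 and 44 with the pseudocounts, 94 with no filter, 10 at a minimum mean of 0.2, 6 pooled, 49 with logged means, 15 with centring, 8 without cells under 1000 UMIs, 0 without trend (754 at an unadjusted p under 0.05) and 7 to 268 with a mouse left out. In T and NK-like cells the 15 became 6 with a pseudocount of 0.01, 8 with no filter or with centring, 7 at a minimum mean of 0.2, 9 pooled or without cells under 1000 UMIs, 45 with logged means, 5 without trend and 7 to 142 with a mouse left out. In B and plasma-like cells the 51 became 13 and 17 with the pseudocounts, 3 at a minimum mean of 0.2 or without trend, 13 pooled, 2 with logged means, 31 with centring and 5 to 75 with a mouse left out. In mixed myeloid cells the 4 became 1 with a pseudocount of 0.01 or without trend, 2 at a minimum mean of 0.2, 29 with logged means and 0 to 136 with a mouse left out, with 447 and 718 genes at an unadjusted p under 0.05 where it was 0.

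Igfbp4 in B and plasma-like cells no longer passed with pseudocounts of 0.01 (adjusted p = 0.0711 by limma) and 0.2 (0.0681), a minimum mean of 0.2 (0.328), pooled UMIs (0.598), logged means (0.349), no cells under 1000 UMIs (0.0804), no trend (0.999) or without WT mouse 1, 2 or 3 or KO mouse 2.

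The mice share only a replicate number. Deviations of same-numbered mice correlated between −0.136 and 0.143. With a replicate block the calls became 19 in hepatocyte-like cells, 2 in cluster A, 55 in cluster B, 138 in macrophage-like, 50 in endothelial-like, 3 in T and NK-like, 243 in B and plasma-like and 60 in mixed myeloid cells. Under the block Igfbp4 (adjusted p = 0.00312 by limma) and Ghr (0.0196) passed in macrophage-like cells and Igf1 (0.00229) in B and plasma-like cells. Counts limit Igfals (432 UMIs) and Igfbp3 (30 UMIs) most.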
